A study of Mus musculus with 21 samples.

Results

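The genes described here are 9 members of the Notch pathway, chosen by name: the ligands Dll4, Jag1 and Jag2, the receptors Notch1 and Notch4, the DNA-binding effector Rbpj, and the target genes Hes1, Hey1 and Hey2. All 9 were found among 24176 genes of the bulk RNA table and among 32285 genes of the single-cell table. The study took endothelial cells, the cells that line blood vessels, out of 3 organs (brain, lung, liver) of C57BL/6J mice that were 2-4 months old, with no treatment or altered genotype given in the labels. Live CD31-positive cells negative for PDGFRβ and CD45 were taken after enzymatic digestion at 37 °C, and myelin was cleared from brain alone. Bulk RNA-seq covered 3 libraries each of brain, lung and liver, and single-cell RNA-seq covered 1 library of brain cells. The labels call the bulk libraries biological replicates but do not say how many mice went into each, so the p-values rest on library-to-library spread, part of which may be technical. In bulk samples, fewer cells of a type and less RNA per cell cannot be told apart.

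Notch signalling passes between touching cells. A ligand of the Delta-like or Jagged family on a cell binds a Notch receptor on its neighbour, the receptor is cut first by an ADAM protease and then by γ-secretase, and its freed intracellular domain joins RBPJ in the nucleus to switch on genes of the Hes and Hey families, which encode transcriptional repressors. In blood vessels the pathway is best known for restraining sprouting from tip cells through DLL4 and for setting arterial identity over venous identity, with HEY1 and HEY2 among the effectors.

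The bulk libraries held between 2992101 counts (lung library 2) and 25690571 counts (liver library 2). Levels are given as CPM, a gene's counts scaled to a library total of 1000000. Across genes, not independent of each other, correlations of log2 CPM lay between 0.829 and 0.902 within a tissue and between 0.608 and 0.712 across tissues. The 8 endothelial markers summed to 6840-7430 CPM in brain, 9010-12500 in lung and 4000-4290 in liver, with none at 0. A gene was called when edgeR's quasi-likelihood test, run on all 13216 genes that passed a low-count filter, gave a Benjamini-Hochberg adjusted p under 0.05 and the log2 fold change was 1 or more in size. All 9 members passed that filter.

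Among ligands, Jag1 and Jag2 had their highest levels in brain and their lowest in liver, whereas Dll4 was highest in lung. Jag1, a Jagged ligand also needed by arterial smooth muscle, had 151, 87.6 and 166 CPM in the brain libraries, 54.8, 30.4 and 40.0 in lung, against 23.9, 3.93 and 10.1 in liver. No library overlapped between any pair of tissues. The log2 fold change of Jag1 was 3.32 between brain and liver (SE 0.57, edgeR adjusted p = 0.00113) and 1.75 between brain and lung (SE 0.54, edgeR adjusted p = 0.0487). Between lung and liver it was 1.56 and missed the threshold (SE 0.54, edgeR adjusted p = 0.0679). Jag2, its close relative, had 87.1, 127 and 115 CPM in brain, 42.4, 20.1 and 18.1 in lung, with 0.379, 0.467 and 2.18 in liver. Liver was thus almost without Jag2 transcript, with 7, 12 and 51 counts per library, and again no pair of tissues overlapped. The log2 fold change of Jag2 was 6.63 between brain and liver (SE 0.75, edgeR adjusted p = 3.22e-05), 4.54 between lung and liver (SE 0.69, edgeR adjusted p = 0.000503) and 2.09 between brain and lung (SE 0.61, edgeR adjusted p = 0.0373).

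The brain-lung calls of both Jagged genes stood close to the threshold. Leaving out any single brain library, or lung library 2 or 3, ended both calls, with adjusted p-values from 0.0525 to 0.158 for Jag1 and from 0.0602 to 0.139 for Jag2; leaving out lung library 1 or liver library 3 ended that of Jag1 alone (0.077 and 0.0522). The direction was the same in every such fit. With all libraries kept, Jag1 also lost the call with RLE size factors, with library size alone and with limma-voom (adjusted p = 0.0507, 0.0725 and 0.0555). Jag2 lost it in edgeR with library size alone (adjusted p = 0.0509) and with the replicate number as a block (adjusted p = 0.0694). The brain-liver calls of both genes and the lung-liver call of Jag2 held in each fit without 1 library.

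Dll4, the ligand that marks tip cells and arteries, had 64.1, 68.3 and 67.9 CPM in brain, 132, 224 and 148 in lung, against 27.3, 53.9 and 68.0 in liver. Every lung library lay above all others, while brain lay at the level of the highest liver library. Lung exceeded liver with a log2 fold change of 1.51 (SE 0.40, edgeR adjusted p = 0.0225); without lung library 2 or liver library 1 the call was lost (adjusted p = 0.0992 and 0.0725). Brain was lower than lung by a log2 fold change of −1.28 that just missed the threshold (SE 0.40, edgeR adjusted p = 0.0521), and DESeq2's Wald test called it (adjusted p = 0.0206; 0.0178 to 0.196 over all alternatives). Brain and liver differed by 0.22 on the log2 scale, within the error (SE 0.40, edgeR adjusted p = 0.78).

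Because Jag1 and Jag2 ranked the tissues alike, and Hey2 is a target gene whose window held the motif described next, their promoters are shown. Each is the 250 bases before a RefSeq start, 5′ to 3′ on the gene's strand, in GRCm38.p6. The Jag2 window lies inside the RefSeq span of its gene (112907803 to 112929812), downstream of the outermost start. The Jag1 and Hey2 windows end where their genes begin. Capitals mark the core motif of RBPJ, TGGGAA, or its reverse complement TTCCCA.
Jag1, chr2:137116521-137116770, minus strand: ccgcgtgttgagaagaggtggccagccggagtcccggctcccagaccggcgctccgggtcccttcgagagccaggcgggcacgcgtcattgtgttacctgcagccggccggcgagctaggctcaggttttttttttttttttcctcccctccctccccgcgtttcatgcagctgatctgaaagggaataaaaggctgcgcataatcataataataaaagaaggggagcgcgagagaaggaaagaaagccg
Jag2, chr12:112929496-112929745, minus strand: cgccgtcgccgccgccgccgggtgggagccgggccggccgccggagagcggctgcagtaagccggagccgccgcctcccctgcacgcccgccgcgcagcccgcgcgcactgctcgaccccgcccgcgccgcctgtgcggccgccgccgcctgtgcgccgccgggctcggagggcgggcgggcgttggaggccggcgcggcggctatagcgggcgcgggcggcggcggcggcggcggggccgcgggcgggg
Hey2, chr10:30842784-30843033, minus strand: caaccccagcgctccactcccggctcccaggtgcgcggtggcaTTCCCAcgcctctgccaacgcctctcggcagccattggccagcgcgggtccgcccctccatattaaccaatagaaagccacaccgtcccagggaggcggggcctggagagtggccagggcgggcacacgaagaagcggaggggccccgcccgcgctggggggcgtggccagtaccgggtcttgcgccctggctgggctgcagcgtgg
The Jagged promoters differed in composition, with 57.2% G or C for Jag1 and 87.2% for Jag2, against a median of 52.4% over 32851 promoters. Neither Jagged window held the motif, and that of Hey2 held it once, on the opposite strand, 207 to 202 bases before the start. Of all 32851 windows of this length, 21.6% held it on either strand, and 2.77% held it at least 2 times, among them the first of 2 start sites of Rbpj, which held 2. The other members with an entry, Dll4, Notch1 and Notch4, had no match; promoters of 7 of 9 members were in the table. A match describes the letters alone.

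**Figure D1:**
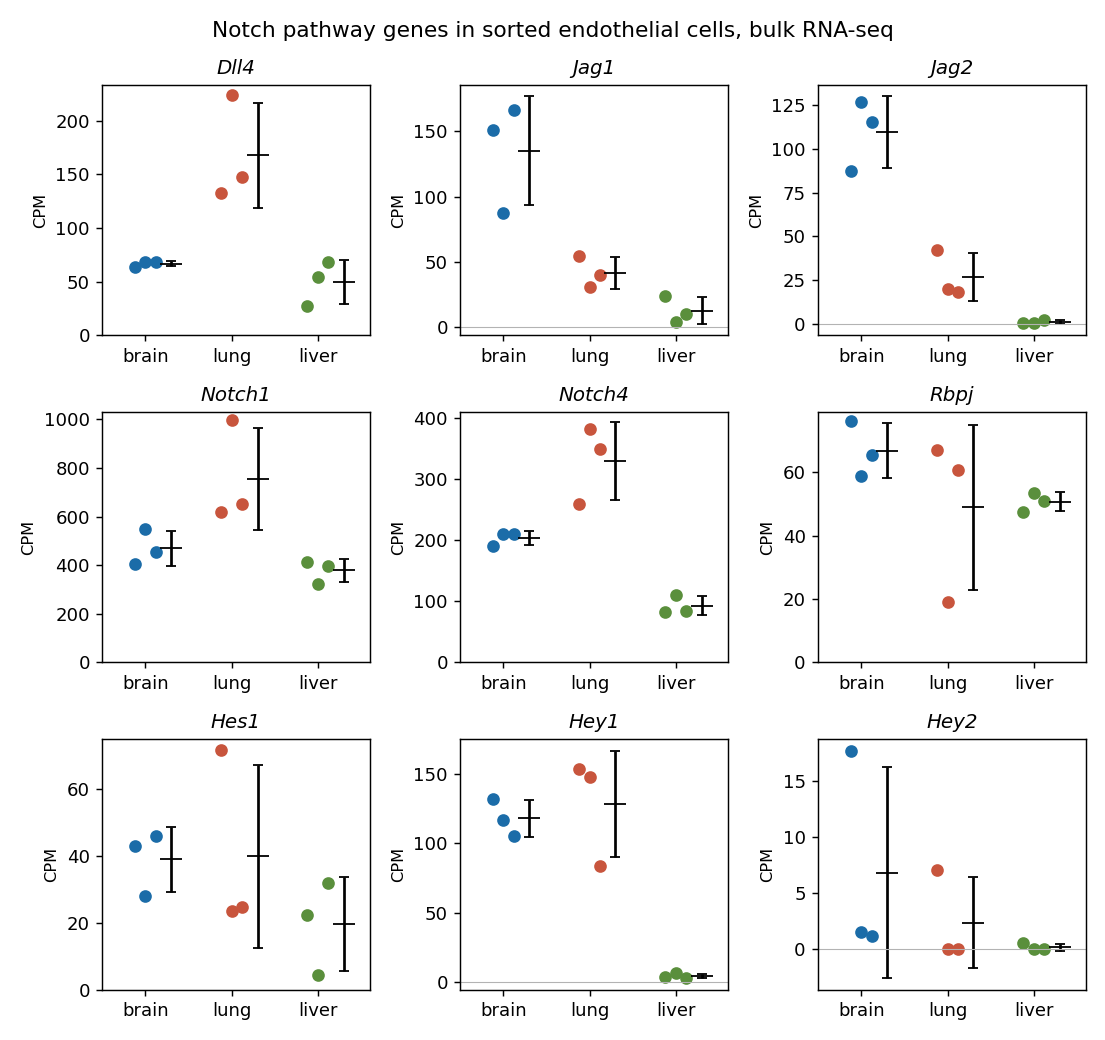
CPM of each member in the 3 brain, 3 lung and 3 liver libraries (points), with the mean and SD beside them (black). Jag1 and Jag2 had separate ranges in order from brain through lung to liver, Hey1 was near 4 CPM in liver and above 84 CPM in every other library, and Hey2 was mostly carried by 1 brain library and 1 lung library.

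Receptor transcripts were present in every tissue and had their highest means in lung. Notch4, whose expression is largely restricted to endothelium, had 191, 211 and 210 CPM in brain, 259, 382 and 350 in lung, with 82.8, 111 and 84.9 in liver. The 3 tissues formed separate ranges. Lung exceeded liver with a log2 fold change of 1.56 (SE 0.30, edgeR adjusted p = 0.00322), a call that held in each fit without 1 library. Brain lay between them: its log2 fold change against liver was 0.91 (SE 0.30, edgeR adjusted p = 0.0505) and against lung −0.65 (SE 0.30, edgeR adjusted p = 0.184), and neither was called. Notch1, the receptor for arterial specification, had 406, 549 and 453 CPM in brain, 619, 996 and 650 in lung, against 415, 323 and 397 in liver. Lung did not overlap with either other tissue, and brain overlapped with liver. The lung-liver difference of Notch1 reached an adjusted p of 0.0487 in edgeR at a log2 fold change of 0.77 (SE 0.25), below the minimum fold, so it was not called. Brain and liver differed by 0.13 (SE 0.24, edgeR adjusted p = 0.786).

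Rbpj, which carries every canonical Notch signal to DNA, was the most even member. It had 76.2, 58.9 and 65.5 CPM in brain, 67.0, 19.1 and 60.8 in lung, with 47.6, 53.6 and 51.0 in liver. Lung library 2 stood below the rest, and its value rests on 57 counts. No comparison of Rbpj came near the threshold, with edgeR adjusted p-values from 0.54 to 0.842 and log2 fold changes of 0.51 (SE 0.46) for brain against lung, 0.19 (SE 0.46) for brain against liver and −0.32 (SE 0.46) for lung against liver. With errors of this size a difference of 2-fold could pass unseen.

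The target genes did not share a pattern. For Hey1 the brain libraries showed 132, 117 and 105 CPM, those of lung 153, 148 and 84.0, and those of liver 3.89, 6.15 and 2.95. Brain and lung overlapped widely, and every liver library lay more than 10-fold below the lowest of them. The log2 fold change of Hey1 was 4.51 for brain against liver (SE 0.48, edgeR adjusted p = 2.05e-05) and 4.59 for lung against liver (SE 0.49, edgeR adjusted p = 2.48e-05), and over all alternatives tried it stayed between 4.23 and 5.11. Between brain and lung it was −0.08 (SE 0.42, edgeR adjusted p = 0.939). The 9 arterial markers used below to gate single cells, none of them a member, were likewise lowest in liver, with sums of 266-436 CPM in brain, 185-273 in lung and 9.81-39.2 in liver, and their part in the result was not tested. Hes1, a repressor whose transcript also responds to signals other than Notch, had 43.1, 27.9 and 45.9 CPM in brain, 71.5, 23.4 and 24.7 in lung, against 22.3, 4.36 and 32.0 in liver. Its ranges overlapped in all comparisons, and no difference was called (edgeR adjusted p from 0.405 to 0.994).

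Hey2, the second Hey repressor of arteries, was near the limit of detection. It had 17.7, 1.56 and 1.19 CPM in brain, 7.07, 0 and 0 in lung, with 0.541, 0 and 0 in liver, from 281, 28 and 26 counts, then 80, 0 and 0, and 10, 0 and 0. A single library held most of the counts in each tissue. With such spread no difference was called, and the brain-liver log2 fold change of 5.07 had an SE of 2.35 (edgeR adjusted p = 0.173). Without lung library 1, where both remaining lung libraries are at 0 counts, the lung-liver value turned from 3.58 to −4.61.

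**Figure D2:**
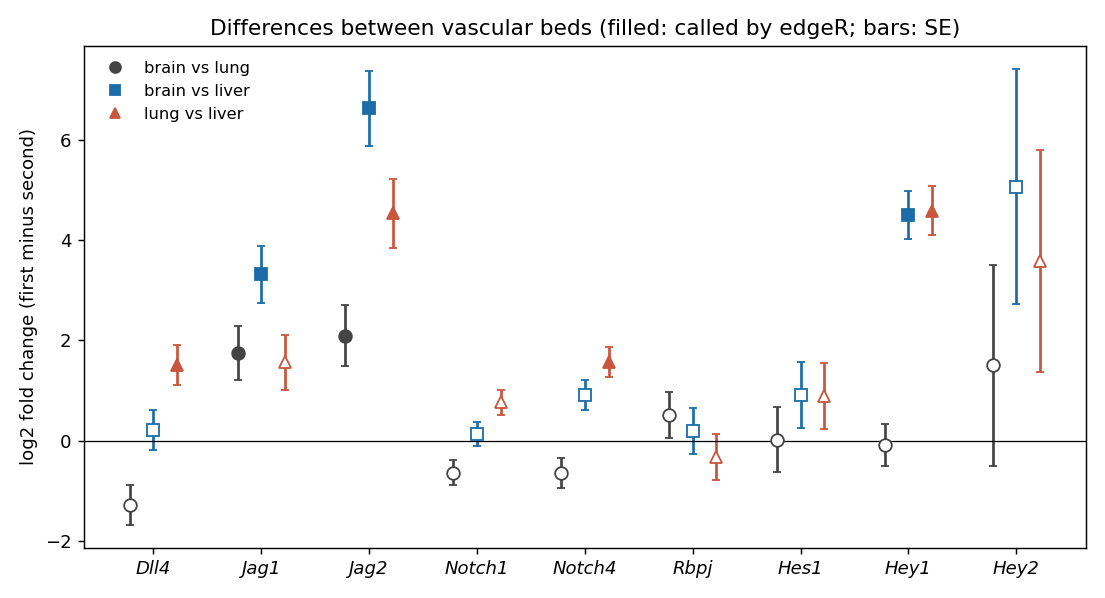
Log2 fold change of each member, first tissue minus second, from the edgeR fit over all 9 libraries, with SE as bars; filled symbols passed the threshold. Against liver, Jag2 reached 6.63 from brain and Hey1 stood at 4.51 from brain and 4.59 from lung, Hey2 had the widest bars, and no value of Rbpj or Hes1 passed the threshold.

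Counted together, 2 of 9 members were called higher in brain than in lung (Jag1 and Jag2), where 5.05% of all tested genes were called higher and 12.3% in either direction. Brain exceeded liver for 3 of 9 (Jag1, Jag2 and Hey1), where 7.45% were called higher and 16.2% in either direction. Lung exceeded liver for 4 of 9 (Dll4, Jag2, Notch4 and Hey1), where 8.04% were called higher and 15.1% in either direction. No member was called lower in these edgeR comparisons, where 7.25%, 8.72% and 7.02% of genes were. Libraries of the 2 tissues did not overlap for 5 members between brain and lung, against 33.8% of all tested genes, for 6 between brain and liver, against 33.2%, and for 6 between lung and liver, against 34.5%. By an unadjusted edgeR p under 0.05, 5, 5 and 6 of 9 members passed in either direction. Over all 13216 tested genes 3453, 3780 and 3771 did. The median log2 fold change of the members was 0.02 for brain against lung, 0.91 for brain against liver and 1.56 for lung against liver, beside 0, 0.01 and 0 over all tested genes. The comparisons share libraries, so these counts are not independent of each other. The dissociation stress list (Fos, Jun, Egr1 and related genes) summed to 2010-3010 CPM in brain, 10300-12500 in lung and 525-1050 in liver. Its order matched that of the means of Dll4, Notch1 and Notch4, and of Hey1 and Hes1, whose brain and lung ranges overlapped. The sums of the 8 endothelial markers, given above, had the same order. The part of either list in these results was not tested. Lung library 2, the shallowest, had the highest Dll4, Notch1 and Notch4 and the lowest Jag1 and Rbpj of the lung libraries. The 6 lung epithelium markers summed there to 1790 CPM, against 298 and 611 in the others, and the 8 endothelial markers to 12500, against 9010 and 10100.

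Of 52 further pathway genes, 45 were tested. Between brain and lung 1 was higher and 4 were lower in brain, between brain and liver 2 and 6, and between lung and liver 4 were higher and 3 lower in lung. These 5, 8 and 7 genes of 45 are shares close to the 12.3%, 16.2% and 15.1% of all tested genes called in either direction, so the genes named next are a description and not a result about the pathway. Dll1, a Delta-like ligand, had 69.1, 122 and 60.9 CPM in lung, against 1.89, 0 and 3.30 in brain and 9.68, 2.88 and 14.4 in liver. It was called lower in brain than in lung, by a log2 fold change of −5.52 (SE 1.13, edgeR adjusted p = 0.0053), and the lung-liver difference missed the threshold (edgeR adjusted p = 0.0535). The remaining ligands Dll3, Dlk1 and Dlk2 did not pass the filter. Notch3, the receptor of mural cells, was counted at 3.40, 14.8 and 13.0 CPM in brain, at 5.57, 1.34 and 1.88 in lung, and at 0.128 or less in liver. It was called against liver from brain and from lung, and Notch2 was called nowhere.

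Among cleavage genes, Adam10, the protease that makes the first cut in ligand-bound Notch, was higher in brain than in lung, with means of 194 and 41.3 CPM and a log2 fold change of 2.28 (SE 0.34, edgeR adjusted p = 0.000455). Liver stood between them at 105 CPM and above lung (lung against liver −1.58, SE 0.33, edgeR adjusted p = 0.00534). The γ-secretase subunits Psen2 and Aph1a moved singly: Psen2 was lower in brain than in liver (7.86 and 45.4 CPM), and Aph1a was higher in lung than in liver (36.7 and 8.05 CPM). Of the sugar modifiers of Notch, Lfng was lower in brain than in liver (5.88 and 24.0 CPM), Pofut1 lower in brain (16.4 CPM) and in lung (17.8 CPM) than in liver (50.2 CPM), and Rfng higher in lung than in liver (31.7 and 4.01 CPM).

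Numb, an inhibitor that routes Notch to degradation, was lower in brain, with 92.1, 55.6 and 71.4 CPM, than in lung, with 391, 520 and 427 (a log2 difference of −2.57, SE 0.28, edgeR adjusted p = 3.2e-05), and lower than in liver, with a mean of 203 CPM (a log2 difference of −1.65, SE 0.27, edgeR adjusted p = 0.000646). Dtx1, a Deltex ubiquitin ligase, had 0 counts in brain and a mean of 3.95 CPM in lung. Maml3, a coactivator that binds the RBPJ complex, was lower in brain (23.0 CPM) than in lung (114 CPM) and liver (80.4 CPM). The RBPJ corepressor Spen was higher in brain (352 CPM) and lung (311 CPM) than in liver (121 CPM), and the deacetylase Hdac1 lower (20.5 and 12.5 CPM against 59.8). Of the other targets Hes6, Heyl and Nrarp were tested and none was called in any comparison by edgeR, nor had any an unadjusted p under 0.05.

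The 5 arterial genes listed outside the pathway did not share 1 order of tissues. Efnb2, the ephrin of arteries, had a mean of 155 CPM in brain, 910 in lung and 97.0 in liver, and the arterial connexin gene Gja4 had 9.43, 59.5 and 200 CPM, so that Gja4 was highest where Hey1 was lowest. Gja5, another arterial connexin gene, had means of 18.6, 49.2 and 11.2 CPM, and Unc5b, a guidance receptor gene, 122, 72.0 and 28.8 CPM. Neither was called in any comparison by edgeR (adjusted p from 0.0612 to 0.71). Like Hey1, the listed arterial genes other than Gja4 had their lowest mean in liver. Liver libraries overlapped with those of brain for Efnb2 and Gja5, and with those of lung for Sox17. Sox17 was higher in brain (371 CPM) than in lung (84.4 CPM) or liver (72.3 CPM), while the venous receptor gene Ephb4 was lower in brain (123 CPM) than in lung (314 CPM) and liver (425 CPM). By Pearson's r of log2 CPM over the 9 libraries, which share 3 tissues, the genes most like Hey1 were Nr4a1 (0.983), Ptrf (0.98) and Git2 (0.979). Those most like Jag2 were Id1 (0.989), Palmd (0.981) and Abhd2 (0.978).

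The single-cell library shows how these genes are spread along the brain vessel tree. It held 9405 distinct barcodes with 500 to 32078 UMIs each (median 4393); a UMI marks 1 captured transcript. Barcodes with at least 4 of 8 endothelial markers, fewer than 4 of 6 erythroid markers and fewer than 4 of 9 mural markers numbered 8704. Arterial cells had at least 3 of 9 arterial markers (982 cells), venous cells at least 3 of 8 venous markers (786 cells) and fenestrated cells at least 3 of 5 fenestrated markers (146 cells), each with fewer than 3 of the other kinds. Capillary cells had at least 5 of 7 capillary markers and at most 1 of every other kind (2865 cells). No Notch gene was used as a marker. These gates are ranges on a score rather than cell types: 296 arterial, 393 venous, 19 fenestrated and 1202 capillary cells sat exactly at the cut, and 99 barcodes that met more than 1 of the non-capillary cuts were left out. The median arterial cell still carried 3 of the capillary markers and the median venous cell 5.

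Of the 5 arterial genes not used for gating, all were higher in arterial than in capillary or venous cells, and not all were higher than in fenestrated cells. Efnb2 stood at 1.96 UMIs per 10000 in arterial, 0.876 in capillary, 0.276 in venous and 2.54 in fenestrated cells. In the same order Gja4 stood at 0.684, 0.0183, 0.0104 and 0.372, Unc5b at 1.29, 0.632, 0.139 and 0.396, and Sox17 at 4.51, 2.95, 2.55 and 0.935. Gja5 had 53 UMIs in arterial cells and 0 in the other gates. Because there is 1 library there is no replicate check and no test between gates, and intervals below are exact 95% Poisson limits that cover counting error only. Median depth was 6444 UMIs in arterial, 4595 in capillary, 5593 in venous and 5076 in fenestrated cells.

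Among the 8 members that reached 0.1 UMIs per 10000, Hey1 had the highest ratio between gates. It stood at 2.52 UMIs per 10000 in arterial cells (2.40 to 2.65), 0.920 in capillary (0.871 to 0.971), 0.211 in venous (0.172 to 0.257) and 0.228 in fenestrated cells (0.137 to 0.356). Arterial cells thus held 11.9 times the venous level (9.77 to 14.7) and 2.74 times the capillary level (2.55 to 2.95). A UMI of Hey1 was seen in 64.7% of arterial, 25.4% of capillary, 8.40% of venous and 8.22% of fenestrated cells. When each cell was thinned to 2000 UMIs, which left out 35, 146, 31 and 14 shallower cells, the shares were 35.7%, 13.8%, 3.31% and 0.758%. In 201 erythroid barcodes, which should lack the gene, 0.995% had a UMI; their median depth was 6985 UMIs, of which 218 were not globin.

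The ligands were all highest in arterial cells but differed in their order elsewhere. Dll4 stood at 1.70 per 10000 in arterial, 1.38 in capillary, 1.1 in fenestrated and 0.597 in venous cells, so that the capillary level was 2.30 times the venous level (2.04 to 2.62) while arterial exceeded capillary cells by 1.24 times (1.15 to 1.33). Jag1 showed the opposite shape, at 1.79 in arterial, 0.731 in capillary and 0.696 in venous cells, with arterial cells 2.45 times capillary (2.25 to 2.66) and venous cells level with capillary at a ratio of 0.952 (0.839 to 1.08). Fenestrated cells held least Jag1, at 0.312 (26 UMIs). Jag2 went stepwise from 4.37 in arterial to 2.20 in capillary, 1.61 in fenestrated and 1.46 in venous cells. Erythroid barcodes held 0 UMIs of Dll4, which by the limit of 3 counts allows a share of cells with a UMI of up to 1.49%, and 1 and 3 UMIs of Jag1 and Jag2.

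**Figure D3:**
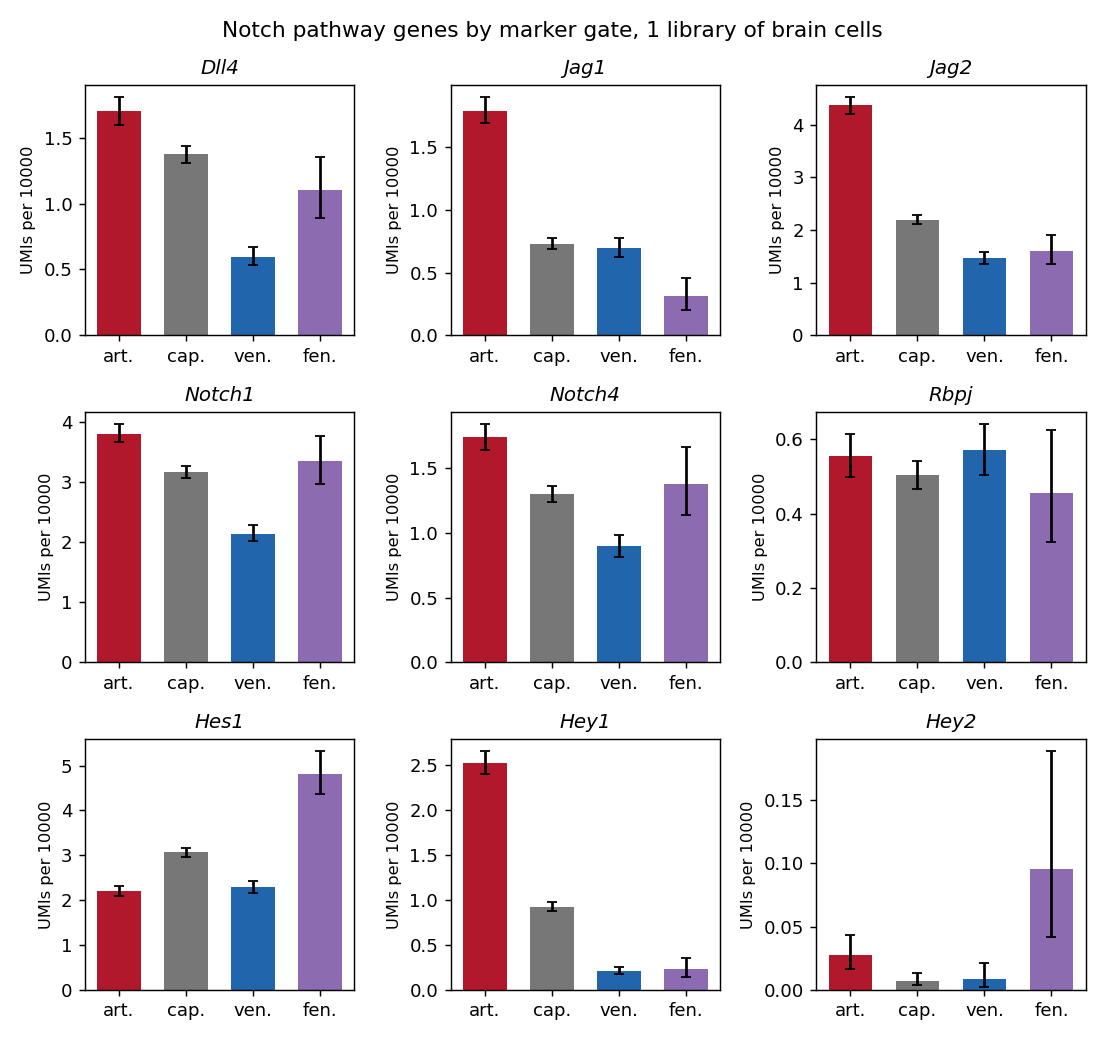
UMIs per 10000 summed UMIs for each member in arterial (art., 982 cells), capillary (cap., 2865), venous (ven., 786) and fenestrated (fen., 146) cells of the single brain library; bars carry exact 95% Poisson intervals. Hey1 stood at 2.52 in arterial and 0.211 in venous cells, Rbpj was level across gates, and Hes1 was highest in fenestrated cells.

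The receptors graded more gently. Notch1 stood at 3.80 per 10000 in arterial, 3.16 in capillary, 3.35 in fenestrated and 2.14 in venous cells, an arterial-to-venous ratio of 1.77 (1.65 to 1.91). Notch4 stood at 1.74, 1.30, 1.38 and 0.895 in the same order, a ratio of 1.94 (1.74 to 2.18). For both receptors the fenestrated level did not differ from the capillary level beyond counting error, with ratios of 1.06 (0.934 to 1.19) and 1.06 (0.871 to 1.28). Rbpj was even, at 0.555 in arterial, 0.503 in capillary, 0.570 in venous and 0.456 in fenestrated cells, and its ratio of arterial to venous was 0.974 (0.831 to 1.14). In erythroid barcodes Notch1 had 4 UMIs (1.99% of barcodes), Rbpj had 1 and Notch4 had 0.

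With the floor of 0.1 per 10000 in either gate that 8 members reached (Hey2 did not), 4 of 8 were at least 2-fold higher in arterial than venous cells (Dll4, Jag1, Jag2 and Hey1), against 4.46% of 8698 genes at that floor. None was at least 2-fold higher in venous cells, against 3.55%. Jag1 and Hey1 (2 of 8) were at least 2-fold higher in arterial than capillary cells, against 3.99% of genes, with Jag2 just under at 1.99. Dll4 and Hey1 (2 of 8) were at least 2-fold higher in capillary than venous cells, against 0.679%. Jag1 and Hey1 (2 of 8) were at least 2-fold higher in capillary than fenestrated cells, against 10.7%. None of the 8 was at least 2-fold higher in fenestrated than capillary cells, against 8.76%, in venous than capillary cells, against 1.84%, or in capillary than arterial cells, against 2.29%. Hey2, left out by the floor, stood at 0.0959 in fenestrated and 0.00703 in capillary cells. That is a ratio of 13.7 (4.68 to 38.4) from 8 and 10 UMIs.

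The same order was seen along the marker scales. Cells with 3 or more markers there are the gated cells themselves, so this is no separate check. In endothelial barcodes with fewer than 3 venous and fenestrated markers, Hey1 was 0.685 per 10000 in 4378 cells with no arterial marker, 1.39 with 1 marker, 1.83 with 2, and between 2.10 and 2.88 with 3 or more. Jag1 went up late on that scale, from 0.758 with no marker to 1.03 with 3 and 2.96 in 273 cells with 6 or more. On the venous scale Dll4 went from 1.38 in 3640 cells with no venous marker to 0.130 in 109 cells with 6 or more, and Hey1 from 1.22 to 0.118, while Jag1 went from 0.832 to 0.626. The number of markers seen also depends on depth: median UMIs went from 3620 with no arterial marker to 7276 with 6 or more, and from 3553 to 7589 on the venous scale.

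**Figure D4:**
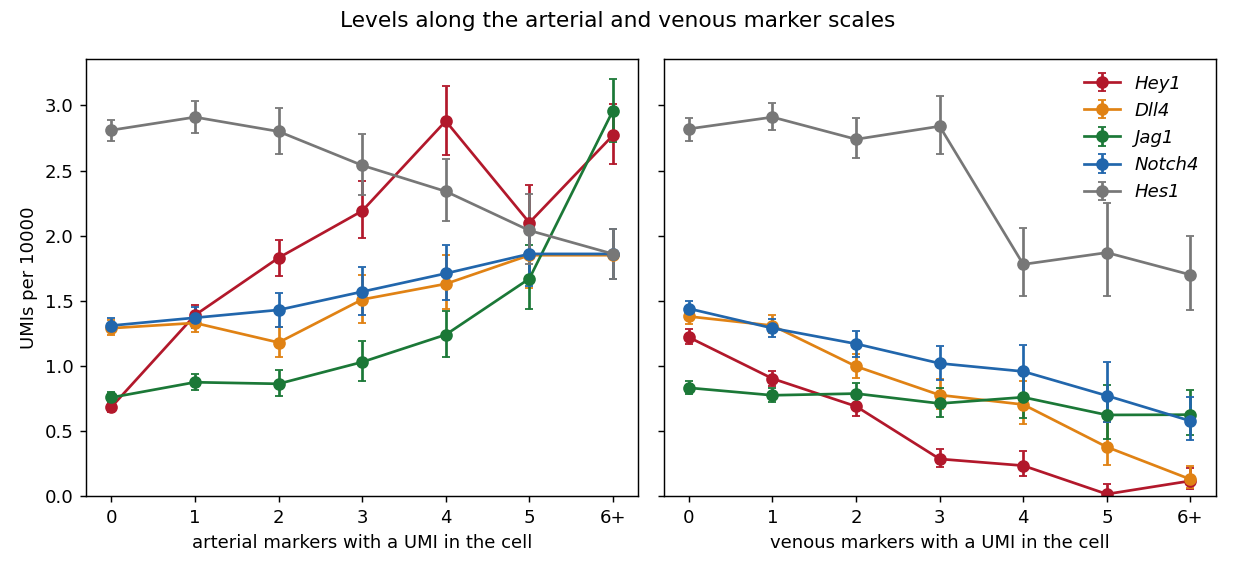
UMIs per 10000 of 5 members against the number of arterial (left) or venous (right) markers detected in a cell, with exact 95% Poisson intervals; 6+ stands for 6 or more. Hey1 climbed with the first arterial markers, Jag1 reached 2.96 at the far arterial end, and Dll4 fell to 0.130 at the far venous end.

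Hes1 did not follow the arterial order. It stood at 2.19 per 10000 in arterial, 3.06 in capillary, 2.29 in venous and 4.82 in fenestrated cells, with fenestrated cells 1.58 times capillary (1.42 to 1.75). The dissociation stress list stood at 81.8, 69.4, 77.3 and 87.8 per 10000 in those gates, highest in fenestrated cells like Hes1 but lowest in capillary cells, so the gates did not share 1 order. Within each gate, Hes1 was higher in cells with more stress transcripts. When cells were divided at the median stress level of all endothelial barcodes, Hes1 was 1.51 in the lower and 4.18 in the higher capillary cells, 1.22 and 2.77 in arterial, 1.07 and 2.99 in venous, and 2.16 and 5.66 in fenestrated cells. Hey1 showed no such increase, at 2.80 and 2.36 in arterial and 0.958 and 0.892 in capillary cells. In venous cells it was 0.187 (0.128 to 0.262) and 0.226 (0.176 to 0.286), with overlapping intervals. In fenestrated cells it was 0.251 and 0.221, from 5 and 14 UMIs. Of 146 fenestrated cells 106 fell in the higher group, and stress was not tested as a source of the difference between gates.

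Hey2 was hardly seen in endothelial barcodes. It had 74 UMIs in 8704 cells, with 18 in arterial, 10 in capillary, 4 in venous and 8 in fenestrated cells. Mural cells are the pericytes and smooth muscle cells that wrap vessels. In 43 barcodes with at least 4 mural markers, Hey2 had 32 UMIs, a level of 1.17 per 10000 against 0.0175 over all endothelial barcodes. These mural barcodes were not screened for endothelial markers. They also held Dll4 (0.438), Jag2 (0.693) and Notch4 (0.438). Notch1 stood there at 4.53 (3.76 to 5.4), against 3.80 in arterial cells, its highest gate. The part of endothelial RNA in these barcodes was not tested. Notch3 (6.02 against 0.00733) and Heyl (1.46 against 0.00071) also had far higher levels in the mural barcodes, and Jag1 was present there (1.86). By count, Notch3 had 165 UMIs in mural and 31 in endothelial barcodes, and Heyl 40 and 3. Hey2 was not confined in this way, with 32 and 74. In the bulk brain libraries the 9 mural markers summed to 29.5, 68.0 and 143 CPM, and the 9 arterial markers to 436, 266 and 372 CPM. Brain library 1, with the most Hey2, thus had the lowest mural and the highest arterial sum. The source of its Hey2 counts was not tested. Notch3 in brain was lowest in that same library, and the part of mural RNA in its brain level was not tested. Mural markers summed to 0.382 per 10000 in arterial, 0.508 in capillary, 0.408 in venous and 0.432 in fenestrated cells, at 0 for 0, 0, 2 and 5 of the 9 genes.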

How the data were processed

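The bulk RNA values are raw counts per gene symbol that the authors deposited, per the file headers, and the single-cell values are deposited UMI counts. The submitters' processing notes name, among other tools and without tying them to an assay, Cell Ranger 1.2.0, HTSeq 0.6.1 and TopHat, and the builds mm10 and mm9. The sources used here do not give cell filters or strand use. ATAC-seq peaks carry no gene names and no annotation of their build was at hand, so they were not used here.

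Bulk counts were fitted with edgeR 4.0.16 in R 4.3.3 (filterByExpr, TMM, robust quasi-likelihood, a mean per tissue, all 9 libraries); SE is the fold change over the root of F. The biological coefficient of variation was 0.766. Alternatives were RLE, no scaling, no Rn45s, no filter, 2-tissue fits, no minimum fold, a replicate block, limma-voom 3.58.1, DESeq2 1.42.0, and each library left out. The fit was tested on simulated counts. Single-cell levels are summed UMIs per 10000 summed UMIs of a gate; no doublet caller was run. Promoters are RefSeq's.

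All members are named, as are further pathway genes called in any comparison and the 3 genes most like a member (mean log2 CPM of at least 5), the last in part. Members, lists and gates were chosen with earlier results of these data known; the numbers of markers needed were set after marker detection was seen.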

Additional observations from a re-analysis of the deposited data

How the results depend on the processing

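Members called between brain and lung numbered 2, against 1 with library size alone, 1 with the replicate block and 1 with limma-voom, 3 with no low-count filter, 3 with only the 2 tissues compared and 3 with DESeq2, and 0 to 3 with 1 library left out (3 without liver 1 or liver 2). With RLE the count stayed at 2, but Jag1 lost its call (adjusted p = 0.0507) and Dll4 gained one (adjusted p = 0.0467). The counts of 3 for brain against liver and 4 for lung against liver were within 1.5 times under every alternative. For samples with the same number, deviations from the tissue mean had correlations from −0.00325 to 0.0779 across genes. Samples with different numbers were not compared, so these values cannot decide whether the numbers pair the samples. Under the replicate block Jag2 lost its brain-lung call (2.04, adjusted p = 0.0694), while Jag1 for lung against liver (1.76, adjusted p = 0.0262) and Hey2 for brain against liver (6.67, adjusted p = 0.0384) gained one.

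Among alternative values for single members, 437 kept direction and side of the threshold, 19 lost a call, 15 gained one and 14 changed sign, none of these called. With 1 library left out the log2 fold change ranged from −0.24 to 0.74 for Hes1, −0.33 to 0.06 for Hey1 and −0.71 to 9.68 for Hey2 between brain and lung, from −0.1 to 0.44 for Dll4 between brain and liver, and from −0.61 to 0.05 for Rbpj and −4.61 to 8.12 for Hey2 between lung and liver. The sign changes were Hes1 between brain and lung, at 0 with RLE and DESeq2, −0.04 with library size alone, −0.03 with limma-voom and −0.02, −0.16, −0.23 and −0.24 without brain 1, brain 3, lung 2 or lung 3; Hey2 between brain and lung, −0.71 without brain 1, and between lung and liver, −4.61 without lung 1; Hey1 between brain and lung, 0.05 and 0.06 without lung 1 or 2; Rbpj between lung and liver, 0.05 without lung 2; and Dll4 between brain and liver, −0.1 without liver 1. The cause was not tested. All genes called between lung and liver fell from 1991 to 1312 without lung 3. The gate counts of members moved by no more than 1.5 times with 1 more marker, thinning, removal of barcodes with markers of other cells, means over cells or, chosen after the data were seen, cells of lower stress.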
